A study of Mus musculus with 14 samples.

Results

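The genes described here are 41 mouse genes of the interferon response and of antigen presentation, taken as a named list of 6 regulators, 5 sensors, 18 effectors, 7 MHC class I genes and 5 MHC class II genes. All 41 had a row among the 34452 mouse genes measured, and 40 entered the test. Tlr9 had 0 counts in all 14 libraries and was not tested. RNA came from the retinal pigment epithelium (RPE) of rd1 mice (FVB/N) at postnatal day 20. The rd1 allele is a loss of Pde6b, which kills the rods, and every animal carried it. In each of 7 mice the Nrf2 eye had received AAV-Best1-Nrf2 together with AAV-Best1-GFP, and the control eye AAV-Best1-GFP alone. Both transgenes were driven by the Best1 promoter, which is active in RPE cells, and the Nrf2 encoded was human NFE2L2. The Nrf2 vector had an AAV8 capsid and the GFP vector another one, so an effect of the transgene and an effect of the added virus cannot be told apart here. All eyes carried GFP, and there was no uninjected eye.

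Cells sense foreign nucleic acid through receptors such as RIG-I, MDA5, STING and the Toll-like receptors, which switch on type I interferon genes through IRF3 and IRF7. Secreted interferon then binds its receptor, and a complex of STAT proteins and IRF9 enters the nucleus and turns on antiviral effectors at a DNA element called the ISRE. Interferon gamma acts through a different element, the GAS, and raises the genes that load peptides on MHC class I and II molecules for display to T cells. In the eye this display is kept low, and RPE cells and resident microglia are both able to raise it.

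A few of the sequences just upstream of the members are printed because the results below turn on these genes. RefSeq start sites (GRCm38.p6) were found for 31 of the 41 members, giving 37 windows of 250 bases upstream. The core of the ISRE, searched on both strands as GAAA, any 2 bases and GAAA again, was present in 29.7% of the windows of members, beside 2.98% of 32851 windows of the same length for all genes. It lay upstream of 11 members, namely B2m, Gbp2, Gbp3, Isg15, Oas3, Oas1a, Bst2, Stat2, Rsad2, Ifit3 and Ifit1. The GAS, searched as TTCNNNGAA, was present in 16.2% of windows, upstream of 6 members, beside 7.02% overall. The antioxidant response element, the site that Nrf2 binds, was searched by a loose pattern of its core, TGANNNNGC, with any base at each N. This pattern was present in 62.2% of windows, upstream of 19 members, beside 35.2% overall. Windows of the same member can overlap, as those of H2-K1 did. A match to letters of this kind does not show that a factor binds there. Each line below runs 5′ to 3′ toward the start site on the strand of the gene, with ISRE core and GAS matches, on either strand, in capitals.
Bst2, chr8:71537473-71537722, minus strand: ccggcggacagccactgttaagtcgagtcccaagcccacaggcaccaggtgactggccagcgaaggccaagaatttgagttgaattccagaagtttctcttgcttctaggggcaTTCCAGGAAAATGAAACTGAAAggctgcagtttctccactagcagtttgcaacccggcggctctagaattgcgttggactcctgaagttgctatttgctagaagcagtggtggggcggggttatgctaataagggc
Stat2, chr10:128270248-128270497, plus strand: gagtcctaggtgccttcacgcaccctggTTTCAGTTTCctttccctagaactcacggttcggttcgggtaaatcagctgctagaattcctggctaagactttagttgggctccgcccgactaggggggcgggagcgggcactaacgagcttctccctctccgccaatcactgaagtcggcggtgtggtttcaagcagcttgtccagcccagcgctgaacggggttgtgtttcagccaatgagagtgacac
B2m, chr2:122147437-122147686, plus strand: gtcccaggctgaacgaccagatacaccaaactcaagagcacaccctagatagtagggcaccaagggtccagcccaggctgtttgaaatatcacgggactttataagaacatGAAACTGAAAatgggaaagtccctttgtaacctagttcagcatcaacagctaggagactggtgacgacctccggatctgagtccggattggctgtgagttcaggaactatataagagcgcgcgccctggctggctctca
Irf1, chr11:53769764-53770013, plus strand: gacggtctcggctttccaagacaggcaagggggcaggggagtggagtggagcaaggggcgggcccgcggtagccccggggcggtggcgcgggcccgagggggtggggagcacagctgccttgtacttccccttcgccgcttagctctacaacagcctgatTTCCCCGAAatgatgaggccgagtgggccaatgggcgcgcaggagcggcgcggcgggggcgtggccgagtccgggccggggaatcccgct
Isg15, chr4:156200819-156201068, minus strand: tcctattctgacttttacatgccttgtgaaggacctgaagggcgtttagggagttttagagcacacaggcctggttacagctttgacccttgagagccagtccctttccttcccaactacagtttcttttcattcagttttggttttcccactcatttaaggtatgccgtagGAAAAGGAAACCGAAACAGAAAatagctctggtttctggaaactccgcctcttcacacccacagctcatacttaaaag
The first base of the ISRE core lay 130 and 124 bases before the start of Bst2 in overlapping matches, 222 bases before that of Stat2, 139 bases before that of B2m, and 78, 72 and 66 bases before that of Isg15. The printed window of Irf1 held a GAS and no ISRE core, and its window at another start site held neither.

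The libraries held 16548349 to 50543008 counts each. NFE2L2 from the vector, which checks the labels, was between 1163 and 8711 CPM (counts scaled to a library total of 1000000) in Nrf2 eyes and between 1.12 and 1163 CPM in control eyes. Nrf2 4 was the lowest of the Nrf2 libraries and control 3 the highest of the control libraries, at 1163 CPM each, so the results were also computed without mice 3 and 4. Markers of RPE were high in all 14 libraries, with 13 RPE genes summing to between 16710 and 36630 normalized CPM (CPM after TMM scaling of the library totals). Of these, Rpe65, the isomerase of the visual cycle, was lower in the Nrf2 eye of all 7 mice (log2 fold change -2.17, SE 0.37, adjusted p = 0.0198), and the other 12 did not pass. The libraries also held genes of the ocular surface epithelium (keratins such as Krt12 and Krt5), and the sum of 14 such genes ranged from 2259 to 64631 normalized CPM. That list was put together after the values had been seen, and it is given beside the results it moves with. In bulk RNA, fewer cells of a type and less RNA per cell cannot be told apart.

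Among the members, Stat2 was lower and Bst2 higher in Nrf2 eyes, and no other member passed the test. The test was edgeR's quasi-likelihood test with mouse and treatment as terms, called at an adjusted p under 0.05 over 16289 genes. It called 2 of 40 members, beside 3.43% of all genes tested, with 1 member higher (2.94% of all genes) and 1 lower (0.491%). The median log2 fold change of the 40 members was -0.20, beside -0.04 over all genes tested, and 28 of the 40 estimates were below 0, beside 54.8% of all genes. Unadjusted p was under 0.05 for 5 members (Stat2, Usp18, Bst2, B2m and H2-K1), beside 18.1% of all genes. Of the members, 6 were lower and 4 higher in the Nrf2 eye of at least 6 mice, beside 19.7% and 16% of all genes. In no member did the groups separate completely, which 1.22% of all genes did upward and 0.381% downward.

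Other ways of fitting the same counts called between 0 and 5 members. DESeq2 called 4 (Stat2, Bst2, B2m and H2-K1) beside 11.9% of all genes, and voom with quality weights called Usp18 as well, 5 in all, beside 15.9%. Stat2 and Bst2 were the 2 members called with RLE scaling (3.38% of all genes), a mean of at least 10 counts (3.14%) and no term for mouse (6.75%). Stat2 alone was called with upper-quartile scaling (2.92%) and with library sizes recomputed after the filter (2.71%), and no member was called without a filter (1.19%). With 1 mouse left out, no member was called without mouse 1 (0.82% of all genes), 2 (1.83%), 3 (1.01%), 5 (0.95%), 6 (1.47%) or 7 (0.595%). Without mouse 4, 5 were called (12.2%), namely Stat2, Irf1, Irf7, Oasl2 and Bst2.

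**Figure D1:**
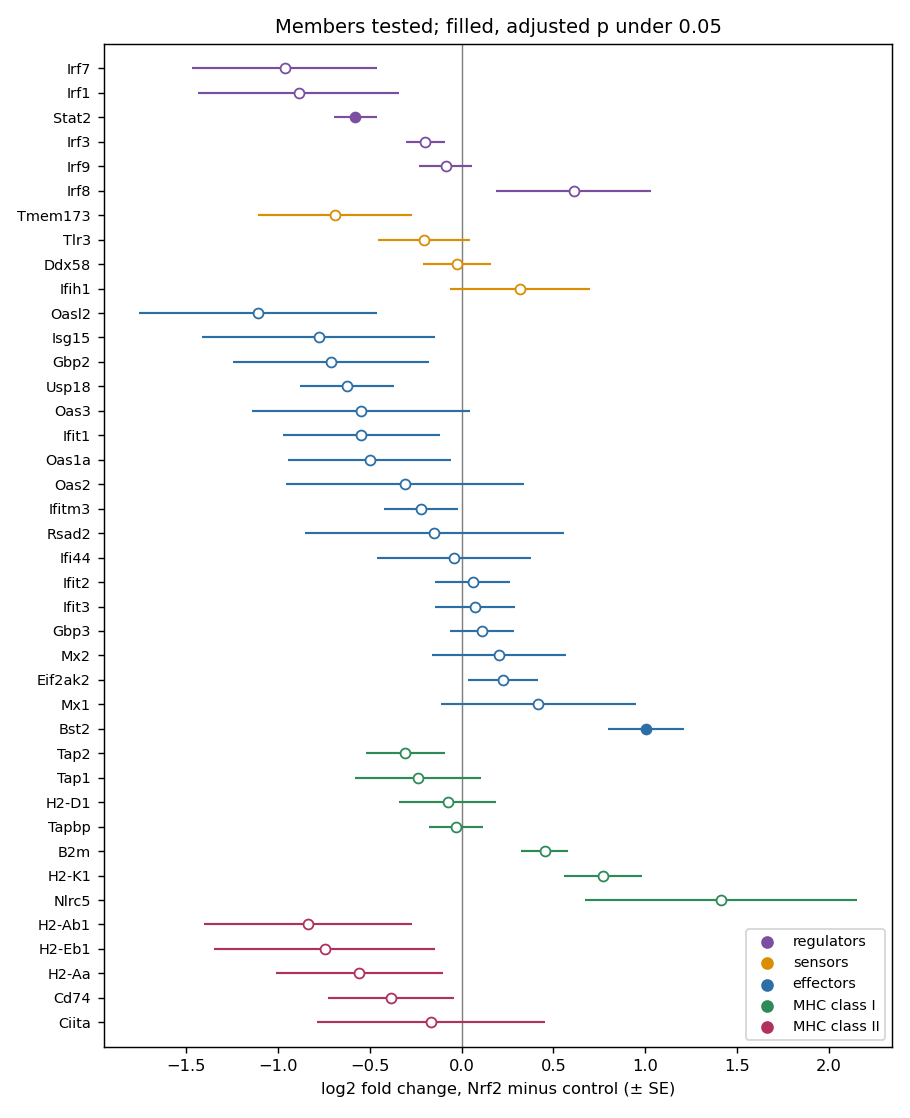
Log2 fold changes (Nrf2 minus control, horizontal axis) of the 40 members tested, with SE as bars, grouped and coloured by role; filled circles passed adjusted p under 0.05. Stat2 at -0.58 and Bst2 at 1.00 are filled, all 5 class II estimates lie to the left of 0, and the class I estimates reach from -0.31 for Tap2 to 1.41 for Nlrc5.

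STAT2 is the part of the interferon-activated complex that carries its activation domain, and its gene fell. Stat2 (ENSMUSG00000040033, GRCm38 chr10:128270559-128292849, plus strand) ranged from 19.8 to 34.3 with a median of 25.1 normalized CPM in Nrf2 eyes, and from 33.8 to 49.8 with a median of 38.4 in control eyes. It was lower in the Nrf2 eye of all 7 mice, and the groups met only where the highest Nrf2 library, that of mouse 7, passed the lowest control library, that of mouse 2. The means were 27.3 ± 5.43 and 40.5 ± 6.08 normalized CPM (SD, n = 7). The fitted log2 fold change was -0.58, with SE 0.12 and adjusted p = 0.0337. Among all genes tested, 2.92% were lower in all 7 mice, and Stat2 was the only member that was. The call held without mouse 4 (-0.64, adjusted p = 0.0147), and it was lost with any other single mouse left out, where adjusted p reached 0.115 without mouse 3, and without both mice 3 and 4 (-0.63, adjusted p = 0.0579).

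IRF1 and IRF7, transcription factors that are themselves induced by interferon, varied far more between mice. Irf1 (ENSMUSG00000018899, chr11:53770014-53778374, plus strand) was the most abundant regulator. It ranged from 32.1 to 117 with a median of 52.4 normalized CPM in Nrf2 eyes, and from 18.2 to 231 with a median of 107 in control eyes. It was lower in the Nrf2 eye of 6 mice, and mouse 4 went the other way, with 117 in the Nrf2 eye and 18.2 in the control eye. The means were 63.8 ± 35.3 and 116 ± 64.5 normalized CPM (SD, n = 7), with a fitted log2 fold change of -0.89, SE 0.55 and adjusted p = 0.425. Irf7, lower in 5 mice and higher in mice 4 and 5, was at 23.05 ± 14.3 and 45.7 ± 28.6 normalized CPM (SD, n = 7; -0.97, SE 0.50, adjusted p = 0.352). Without mouse 4 both were called lower, Irf1 at -1.32 (adjusted p = 0.0209) and Irf7 at -1.37 (adjusted p = 0.0291), in a fit that called 12.2% of all genes. The same fit called 13 of 14 genes of the ocular surface epithelium lower, with a median of -1.81. Without mice 3 and 4 neither was (adjusted p = 0.0608 and 0.0715).

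The other regulators did not pass. Irf9, the DNA-binding part of the STAT2 complex, had an estimate of -0.09 (SE 0.14, adjusted p = 0.786), with 35.1 ± 7.11 normalized CPM in Nrf2 and 37.5 ± 9.64 in control eyes (SD, n = 7). Irf3, which is present before infection and is switched on by phosphorylation, had -0.20 (SE 0.10, adjusted p = 0.357). Irf8, a factor of myeloid cells, had the only estimate above 0 in this group, 0.61 (SE 0.42, adjusted p = 0.477). Its highest library was Nrf2 7 at 18.1 normalized CPM, and the control libraries lay between 2.79 and 5.89. The median of the 6 regulators was -0.39.

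None of the 4 sensors tested passed, and their median was -0.12. Ddx58, which encodes the RNA sensor RIG-I, was the most abundant, at 26.1 to 84.0 with a median of 29.6 normalized CPM in Nrf2 eyes and 26.4 to 48.8 with a median of 34.9 in control eyes. The library Nrf2 2 stood far above the other 6 Nrf2 libraries, which overlapped the controls throughout. The means were 37.5 ± 20.8 and 35.7 ± 8.36 normalized CPM (SD, n = 7; log2 fold change -0.03, SE 0.18, adjusted p = 0.959). Ifih1, for the long double-stranded RNA sensor MDA5, had an estimate of 0.32 (SE 0.38, adjusted p = 0.698). Tlr3, an endosomal receptor for double-stranded RNA, had -0.21 (SE 0.25, adjusted p = 0.703). Tmem173, for STING, which responds to the product of the DNA sensor cGAS, was lower in 6 of 7 mice with an estimate of -0.69 (SE 0.42, adjusted p = 0.42). Tlr9, the receptor for unmethylated CpG DNA of microbes and viral vectors, had no count in any eye.

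Among the 18 effectors, Bst2 rose and the others did not pass. BST2 (tetherin) is a membrane protein that holds budding virus particles at the cell surface. Bst2 (ENSMUSG00000046718, chr8:71534255-71537456, minus strand) ranged from 27.4 to 79.4 with a median of 51.1 normalized CPM in Nrf2 eyes, and from 15.7 to 31.2 with a median of 24.4 in control eyes. In each of the 7 mice the Nrf2 eye had more, with the largest log2 difference in mouse 1 (1.85) and the smallest in mouse 4 (0.16). Only the Nrf2 library of mouse 4 fell within the control range. The means were 48.8 ± 17.2 and 23.7 ± 5.79 normalized CPM (SD, n = 7). The fitted log2 fold change was 1.00, with SE 0.21 and adjusted p = 0.0383. Members higher in all 7 mice were Bst2, B2m and Nlrc5, 3 in all, beside 5.65% of all genes tested. The estimate was 1.14 without mouse 4 (adjusted p = 0.0107) and 1.21 without mice 3 and 4 (adjusted p = 0.0343), in a fit that called 4.59% of all genes and no other member. With any other single mouse left out the estimate stayed between 0.86 and 1.07, and the call was lost, with adjusted p up to 0.132 without mouse 7.

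**Figure D2:**
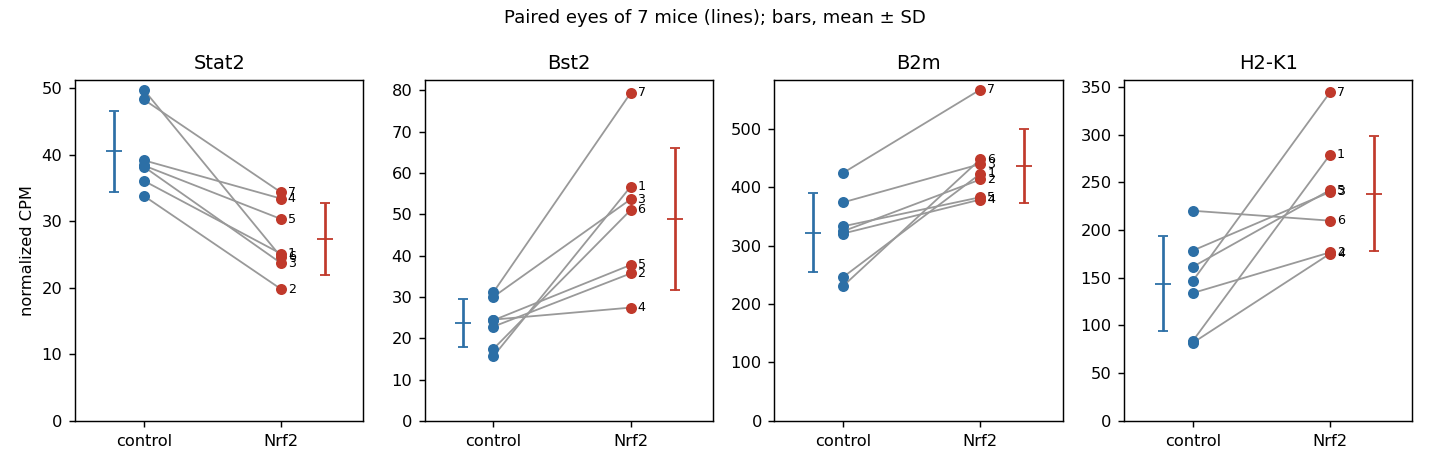
Normalized CPM (vertical axis, from 0) of Stat2, Bst2, B2m and H2-K1 in the control and Nrf2 eye of each mouse, with a line for each of the 7 mice and its number at the Nrf2 point, and bars for the mean ± SD. All 7 lines fall for Stat2, all 7 rise for Bst2 and B2m, and for H2-K1 the line of mouse 6 alone falls.

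The other 17 effectors had estimates from -1.11 to 0.42. Oasl2, of the oligoadenylate synthetase family that senses double-stranded RNA, had the lowest. It ranged from 13.3 to 68.3 with a median of 27.6 normalized CPM in Nrf2 eyes and from 7.69 to 137 with a median of 73.2 in control eyes, with a fitted log2 fold change of -1.11, SE 0.65 and adjusted p = 0.401. As with Irf1, the Nrf2 eye was the lower one in every mouse but mouse 4, and without that mouse the gene was called lower at -1.58 (adjusted p = 0.0252), in the fit that called 13 surface epithelium genes lower. Isg15, a ubiquitin-like protein attached to others after interferon, was at 4.24 to 31.6 in Nrf2 and 3.09 to 75.0 normalized CPM in control eyes (-0.78, SE 0.64, adjusted p = 0.548). Usp18, the protease that takes ISG15 off again and damps the receptor, was lower in 6 of 7 mice (-0.63, SE 0.26, adjusted p = 0.244). Gbp2, a GTPase that attacks vacuoles of pathogens, had -0.71 (SE 0.53, adjusted p = 0.513).

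The RNA-binding Ifit genes differed little between groups relative to the spread between mice. Ifit1 had an estimate of -0.55 (SE 0.43, adjusted p = 0.533), Ifit2 of 0.06 (SE 0.20, adjusted p = 0.909) and Ifit3 of 0.07 (SE 0.22, adjusted p = 0.898). Oas1a, Oas2 and Oas3, whose product activates RNase L, had -0.50, -0.31 and -0.55, with adjusted p between 0.582 and 0.841. The GTPases Mx1 and Mx2 had 0.42 and 0.20, Rsad2 (viperin) -0.15 and Ifi44 -0.04. Eif2ak2, for the kinase PKR that halts translation on double-stranded RNA, had 0.23, and Gbp3 0.11. For these 6 genes adjusted p lay between 0.562 and 0.971. Ifitm3, which blocks fusion of virus with the endosome and was the most abundant effector, was at 82.1 ± 23.7 normalized CPM in Nrf2 and 96.0 ± 26.6 in control eyes (SD, n = 7; -0.22, SE 0.20, adjusted p = 0.595). The median of the 18 effectors was -0.19, with 11 estimates below 0.

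None of the 7 class I genes passed the test, and 3 estimates were above 0 and 4 below. B2m (ENSMUSG00000060802, chr2:122147686-122153083, plus strand), the light chain shared by class I molecules, ranged from 379 to 567 with a median of 423 normalized CPM in Nrf2 eyes and from 231 to 425 with a median of 325 in control eyes. In all 7 mice the Nrf2 eye exceeded its partner, and the groups overlapped because the control library of mouse 7 lay among the Nrf2 values. The means were 436 ± 63.4 and 322 ± 67.6 normalized CPM (SD, n = 7; log2 fold change 0.45, SE 0.13, adjusted p = 0.104). DESeq2 called it (0.47, adjusted p = 0.00675) among 11.9% of all genes, and voom with quality weights in limma did (0.40, adjusted p = 0.0374) among 15.9%.

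H2-K1 (ENSMUSG00000061232, chr17:33996017-34000347, minus strand), a class I heavy chain, had a larger estimate with a larger error. It ranged from 175 to 344 with a median of 240 normalized CPM in Nrf2 eyes and from 81.8 to 220 with a median of 147 in control eyes. The Nrf2 eye was higher in 6 mice and just below the control eye in mouse 6, and the ranges overlapped. The means were 238 ± 59.9 and 144 ± 49.8 normalized CPM (SD, n = 7; 0.77, SE 0.21, adjusted p = 0.0946), and DESeq2 and voom called it (adjusted p = 0.00715 and 0.0252). The other heavy chain, H2-D1, had an estimate near 0 (-0.08, SE 0.26, adjusted p = 0.911), at 634 ± 137 and 704 ± 274 normalized CPM (SD, n = 7). The Nrf2 eye had more in 3 mice and less in 4. The difference between the changes of these heavy chains was not tested. The reference was that of C57BL/6J, the H2 genes are among the most variable between mouse strains, and these mice were FVB/N, so counts of H2-K1 and H2-D1 and their division between near-identical copies are uncertain. The same limit holds for the Oas, Ifit and Gbp genes, which have close copies.

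NLRC5, the transactivator of class I genes, was at the edge of detection. Nlrc5 ranged from 0.751 to 2.65 with a median of 1.40 normalized CPM in Nrf2 eyes and from 0 to 0.927 with a median of 0.710 in control eyes. All 7 paired differences were above 0, and the control library of mouse 6 had no count. The means were 1.48 ± 0.612 and 0.580 ± 0.337 normalized CPM (SD, n = 7; log2 fold change 1.41, SE 0.74, adjusted p = 0.354). Tap1 and Tap2, the peptide transporter of the endoplasmic reticulum, had estimates of -0.24 (SE 0.34, adjusted p = 0.752) and -0.31 (SE 0.21, adjusted p = 0.48), and Tap2 was lower in the Nrf2 eye of 6 mice. Tapbp (tapasin), which bridges the transporter and the class I molecule, had -0.03 (SE 0.15, adjusted p = 0.937). The median of the 7 class I genes was -0.03.

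All 5 class II genes had estimates below 0, and none passed. Class II molecules present peptides of engulfed protein and are at their highest in professional antigen-presenting cells. Cd74, the invariant chain and the most abundant of them, ranged from 10.5 to 36.4 with a median of 24.9 normalized CPM in Nrf2 eyes and from 12.97 to 42.9 with a median of 32.5 in control eyes. The groups overlapped over most of their range, and the Nrf2 eye was higher in 3 mice, with a fitted log2 fold change of -0.39, SE 0.34 and adjusted p = 0.584. The chains H2-Aa and H2-Ab1 had -0.56 (SE 0.46, adjusted p = 0.55) and -0.84 (SE 0.57, adjusted p = 0.469). H2-Eb1 and Ciita, the class II transactivator, had means under 0.5 normalized CPM in both groups and estimates of -0.75 and -0.17 (adjusted p = 0.542 and 0.919). The median of the 5 was -0.56.

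To compare levels between genes, counts were divided by exon length and rescaled to the same total (TPM). On this scale B2m was the highest member in control eyes at 1129 ± 233 TPM, then H2-D1 at 801 ± 256, Ifitm3 at 419 ± 90.3, Tapbp at 254 ± 42.8 and H2-K1 at 144 ± 39.0 (SD, n = 7). Mean and SD of B2m and H2-D1 overlapped, and those of H2-D1, Ifitm3, Tapbp and H2-K1 did not. Isg15 (93.9 ± 98.9), Irf1 (85.2 ± 42.5), Ifit3 (84.6 ± 24.8), Bst2 (79.1 ± 18.6) and Cd74 (52.5 ± 15.9) followed in order, with neighbours that did not differ beyond their spread. Stat2 was ranked 19 of 41 at 20.6 ± 2.70 TPM. At the lower end stood H2-Eb1, Nlrc5 and Ciita, each under 1 TPM, and Tlr9 at 0.

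The 7 mice did not move together. In mouse 4 the Nrf2 eye was the higher one for 36 of 40 members, with a median log2 difference of 0.72. In mouse 6 it was the higher one for 8 members (median -1.005), in mouse 3 for 9 (-0.44) and in mouse 7 for 12 (-0.37). Mice 1, 2 and 5 were near balance, with 17, 18 and 24 members higher and medians of -0.12, -0.14 and 0.06. The median over all genes lay between -0.07 and 0.07 in each mouse. Class II genes had medians of 1.21 in mouse 4, -1.56 in mouse 6 and -1.63 in mouse 3. In mice 1, 2, 5 and 7 their medians were -0.23, -0.78, 0.02 and -0.15. The effectors had medians of 0.44 in mouse 4 and -1.45 and -1.28 in mice 6 and 7. In mice 1, 2, 3 and 5 they were -0.40, 0.20, -0.34 and 0.40.

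**Figure D3:**
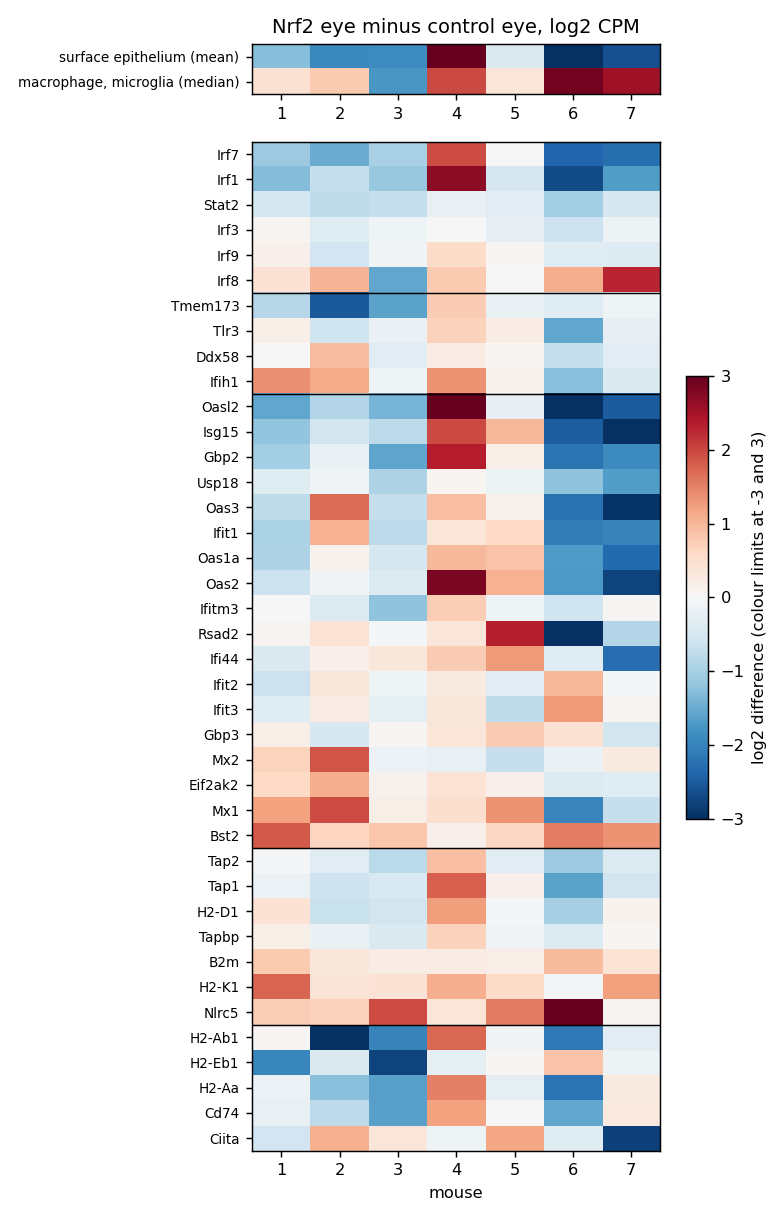
Difference between the Nrf2 and the control eye of each mouse in log2 CPM (columns, colour scale from -3 to 3) for the 40 members tested, ordered by role and estimate, below the same difference for 14 surface epithelium genes and 16 macrophage and microglia genes. The column of mouse 4 is red for 36 of 40 members and for the surface epithelium, those of mice 6 and 7 are mostly blue, and Stat2 is blue and Bst2 red in every column.

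The surface epithelium genes also differed between the eyes of each mouse. The Nrf2 eye exceeded the control eye by 3.49 on the log2 scale in mouse 4, and in the other 6 mice the difference was -1.28, -1.93, -1.90, -0.43, -3.04 and -2.64 for mice 1, 2, 3, 5, 6 and 7. Regulator medians had the sign of that difference in mice 1 to 7 (-0.22, -0.63, -0.83, 0.66, -0.12, -0.81 and -0.43). Effector medians had the other sign in mice 2 and 5 (0.20 and 0.40), and the class II median in mouse 5 (0.02). Sensor medians did in mice 1, 2 and 5 (0.08, 0.17 and 0.085), and class I medians in mice 1, 5 and 7 (0.44, 0.15 and 0.07). All 14 estimates of the surface epithelium genes were below 0, and none passed with all 7 mice in edgeR (3 had an unadjusted p under 0.05), whereas DESeq2 called 5 and voom 3. Without mouse 4, 13 were called lower, and without mice 3 and 4, 5 were. The sum of the 14 genes ranged from 2732 to 27532 normalized CPM in Nrf2 eyes and from 2259 to 64631 normalized CPM in control eyes. The library with the least surface epithelium, control 4, was the lowest of all 14 in Irf1 (18.2 normalized CPM), Irf7 (9.24), Oasl2 (7.69) and Tap2 (34.1). The library with the most, control 6, was the highest in the same genes (231, 84.0, 137 and 84.6). These genes were picked after their values were seen, and not all members did so. Isg15, Ifit1, Oas1a and Usp18 were highest in control 7 (75.0, 66.1, 35.2 and 23.9 normalized CPM) and lower in control 6 (44.8, 53.7, 17.2 and 15.1). The surface epithelium sum of control 7 was 17972 normalized CPM.

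**Figure D4:**
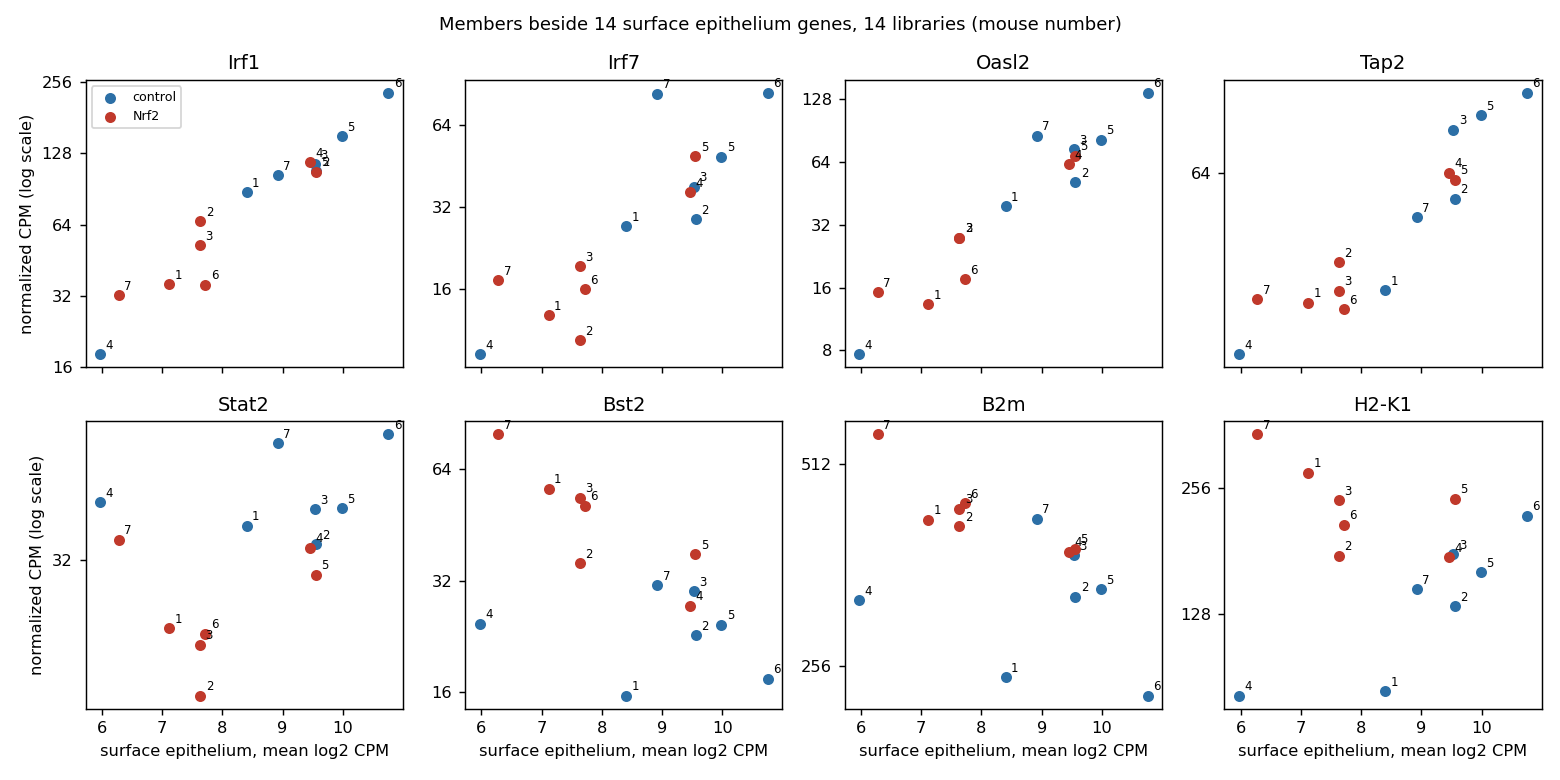
Normalized CPM of 8 members (vertical axes, log scale) against the mean log2 CPM of 14 surface epithelium genes (horizontal axes) in the 14 libraries, blue for control and red for Nrf2, with mouse numbers. Irf1, Irf7, Oasl2 and Tap2 are lowest in control 4 at the lower left and highest in control 6 at the upper right. Irf7 leaves such a line in control 7, at 83.3 with a surface epithelium mean of 8.92. Its value was 28.9 in control 2 and 38.0 in control 3, where that mean was 9.56 and 9.53. Stat2, Bst2, B2m and H2-K1 show no single line over both colours. Among the control libraries alone H2-K1 was also lowest in control 4 (81.8) and highest in control 6 (220), and Stat2, Bst2 and B2m were not.

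With the mean log2 CPM of these 14 genes added as a covariate, a step chosen after the data were seen, no member passed (281 genes did, 1.73% of all). The median of the members moved from -0.20 to 0.07, and estimates of Irf1, Irf7 and Oasl2 moved to 0.06 (SE 0.17), -0.15 (SE 0.15) and 0.03 (SE 0.17). Those of Stat2 and Bst2 kept their direction, at -0.48 (SE 0.11, adjusted p = 0.0802) and 0.80 (SE 0.18, adjusted p = 0.0831), and H2-K1 was at 0.87 (SE 0.23, adjusted p = 0.124). The class II median moved from -0.56 to -0.05 and the class I median from -0.03 to 0.29. The covariate was itself lower in the Nrf2 eye of every mouse but mouse 4. A fit with it can therefore take up part of a treatment effect, and it cannot tell such an effect from a difference in tissue.

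**Figure D5:**
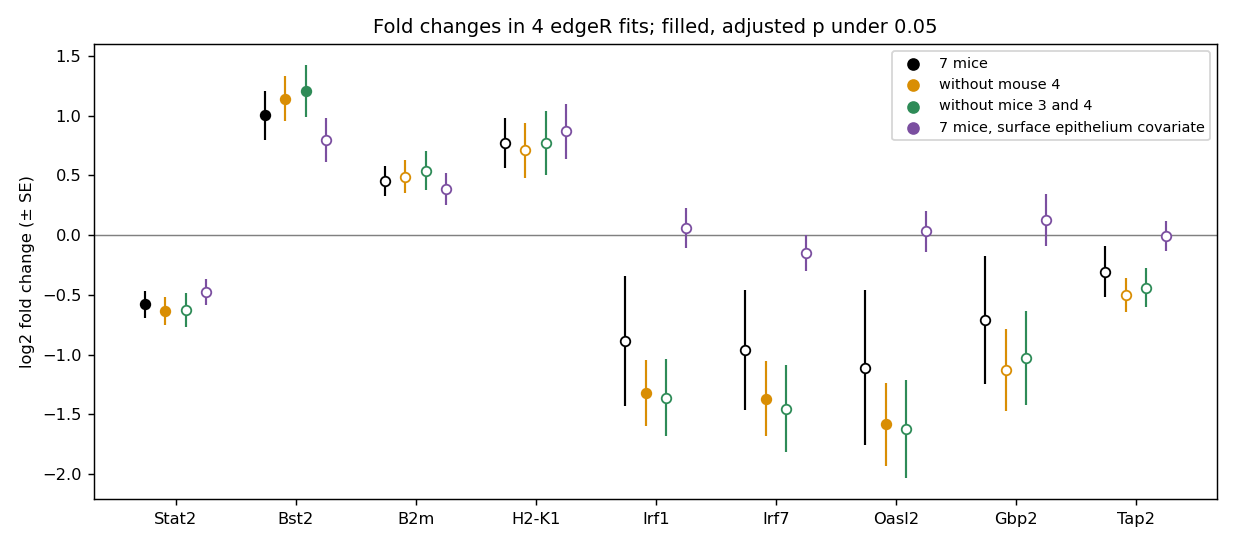
Log2 fold change (Nrf2 minus control, vertical axis) with SE for 9 members in 4 edgeR fits: all 7 mice, without mouse 4, without mice 3 and 4, and all 7 mice with the surface epithelium covariate; filled circles passed adjusted p under 0.05. Irf1, Irf7, Oasl2 and Gbp2 lie between -0.71 and -1.62 in the first 3 fits and between -0.15 and 0.13 with the covariate, whereas Stat2 stays below and Bst2, B2m and H2-K1 above 0 in all 4.

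Markers of immune cells, which express several members strongly, were examined as a list. Of 16 macrophage and microglia genes 14 had estimates above 0 with a median of 1.07. None passed in edgeR, where 3 had an unadjusted p under 0.05, and voom called 0. DESeq2 called 4, with Lyz2, C1qa and C1qb higher and Csf1r lower. In at least 6 mice 9 of the 16 were higher and 2 lower, beside 16% and 19.7% of all genes. Their sum ranged from 215 to 852 with a median of 291 normalized CPM in Nrf2 eyes and from 278 to 562 with a median of 375 in control eyes, and it was lower in the Nrf2 eye of mice 1, 2 and 3, and no marker in the list was at 0 in a whole group. The estimates below 0 were those of Csf1r and Itgam, at -0.76 and -0.80. By mouse, the median of the list was highest in mice 6 and 7, at 2.90 and 2.53, and lowest in mouse 3, at -1.75. Irf8 was likewise highest in Nrf2 7 and lowest in Nrf2 3. Dendritic cell genes summed to at most 23.4 normalized CPM in any library. Genes of T, B and NK cells summed to at most 5.22 normalized CPM in 13 libraries and to 29.8 in Nrf2 2, the library with the highest Ddx58. All 7 cone genes had estimates below 0, summing to 18.3 to 89.7 normalized CPM in Nrf2 and 41.1 to 911 in control eyes, and 2 passed (6 with DESeq2 and 7 with voom). All 7 rod genes did too, with a median of -1.36 and sums of 7.05 to 79.6 in Nrf2 and 19.1 to 376 normalized CPM in control eyes, and none passed in edgeR (3 had an unadjusted p under 0.05), with 3 called by DESeq2 and 4 by voom. The part of the surface epithelium, macrophage, lymphocyte, cone and rod signals in the results for the members was not tested.

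Genes of the same pathways outside the list were counted in the same fit. Of 89 such genes 87 had a row and 78 were tested. Of these, 2 passed (beside 3.43% of all genes), both higher, and the median was -0.14. The 7 interferon genes themselves (Ifnb1, Ifna2, Ifna4, Ifnk, Ifng, Ifnl2 and Ifnl3) were too low to test, summing to at most 1.98 normalized CPM in any library. The highest sum was in Nrf2 2 and the next highest, 0.286, in control 1. Nrf2 2 was also the library with the fewest counts and the largest share of counts on pseudogenes (2.55%).

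Ifnar2, a chain of the type I interferon receptor, was one of those that passed. Ifnar2 (ENSMUSG00000022971, chr16:91372783-91405589, plus strand) ranged from 59.9 to 121 with a median of 89.4 normalized CPM in Nrf2 eyes and from 22.4 to 56.5 with a median of 44.4 in control eyes. Every Nrf2 library was above every control library, as in 1.22% of all genes tested. The means were 93.8 ± 22.3 and 44.0 ± 11.5 normalized CPM (SD, n = 7; log2 fold change 1.10, SE 0.19, adjusted p = 0.0200). Its partner chain Ifnar1 had an estimate of -0.19 (SE 0.10, adjusted p = 0.37).

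Igtp, an immunity-related GTPase that acts on vacuoles of parasites, was the other. Igtp (ENSMUSG00000078853, chr11:58199556-58207591, plus strand) ranged from 14.9 to 70.7 with a median of 32.4 normalized CPM in Nrf2 eyes and from 8.68 to 25.99 with a median of 10.8 in control eyes. All 7 mice had more in the Nrf2 eye, and the ranges overlapped. The means were 39.2 ± 18.3 and 13.3 ± 6.04 normalized CPM (SD, n = 7; log2 fold change 1.51, SE 0.22, adjusted p = 0.0120). Igtp was called in every fit that left out 1 mouse except that without mouse 7 (adjusted p = 0.0554), and Ifnar2 in 2 of the 7. Both were called without mice 3 and 4 (adjusted p = 0.00814 for Igtp and 0.0268 for Ifnar2) and with the surface epithelium covariate (1.31, adjusted p = 0.0224, and 0.93, adjusted p = 0.0443).

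The pathway genes outside the list are given by role. Receptors and kinases had a median of -0.12 over 11 genes, further sensing genes -0.28 over 12, further effectors -0.18 over 35, further class I genes -0.04 over 12 and further class II genes 0.04 over 8, beside -0.56 for the 5 class II members. Without mouse 4, 15 of these 78 genes were called (beside 12.2% of all genes), 4 higher and 11 lower. Without mice 3 and 4, 6 were called (beside 4.59%), 3 in each direction.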

How the data were processed

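RNA of RPE from both eyes of 7 rd1 mice was amplified with a low-input kit by the authors and sequenced in 2 runs. Libraries are not assigned to runs in the labels, and runs could not be compared. The deposited values are expected counts per gene, estimated by the authors with Salmon 0.9.1 (submitters' processing notes) and rounded to whole numbers, and not normalized between libraries. That the table is the Salmon one was inferred from its rows. The annotation was Ensembl release 91 on mm10 and FastQC served for quality control. Estimated counts divide reads between similar copies by a model.

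Symbols, positions and exon lengths came from GENCODE M21 (GRCm38), which matched 34401 of 34452 mouse rows. The NFE2L2 row of the vector was kept out of tests and library sizes. Genes passing filterByExpr by group (minimum count 10) were tested with edgeR 4.0.16 (R 4.3.3; TMM, glmQLFit, glmQLFTest) with mouse and treatment as terms, as in the paired design of the study, with Benjamini-Hochberg adjustment over 16289 genes. The residual degrees of freedom were 6, with 2.68 from the prior. Adjusted p-values come from edgeR where no other tool is named, with SE derived from its F statistic. Normalized CPM use TMM-scaled library sizes. The planned sign-flip test of paired differences is not used, since a member with the same sign in all 7 mice has its smallest p by construction. Per-mouse differences are of log2 CPM with a prior count of 2.

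The labels give each animal's eyes one number, and this is the pairing. For this age the paper states fewer paired replicates than the 7 pairs labelled here, without naming a pair left out. The eyes' deviations from their group means correlated at 0.00, 0.08, 0.03, -0.31, 0.30, -0.17 and 0.14 between the eyes of mice 1 to 7, over 16289 genes. Alternatives were a fit without mouse, scaling by RLE or upper quartile, DESeq2 1.42.0, voom with quality weights (limma 3.58.1), the filter left out or set to a mean of 10 counts, each mouse or mice 3 and 4 left out, library sizes recomputed after the filter, and the surface epithelium covariate. The last 2 were added after the data were seen. The fits were first run on simulated counts drawn without differences between mice or in tissue. That run checks the working of the fits and not their error rates on these data.

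The members and gene lists were chosen with earlier results of these data known. All 41 members are given by role. Values in both groups with full statistics are given for members past adjusted p 0.05, members with the same sign in all 7 mice and the most abundant member of each role. H2-K1, Irf7, Oasl2, Isg15 and the others given in more detail were chosen after their values were seen. Listed genes without a row were Mb21d1 and Ifi30. Amplified reads carry no molecular identifiers. With 16548349 to 50543008 counts a library, the spread between mice was not compared with counting error. Counting error weighs most for members near 1 CPM or below.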

Additional observations from a re-analysis of the deposited data

Results flagged for a closer look

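In 18 groups of 7 libraries (9 members by 2 groups), 2 held a library whose gap to its nearest neighbour exceeded Dixon's 95% critical share of the group's range. Chance gives about 1 in 20 groups. B2m was at 567 normalized CPM in Nrf2 7, above the other 6 Nrf2 libraries. Ddx58, for RIG-I, was at 84.0 normalized CPM in Nrf2 2. That library had the fewest counts and the largest share of counts on pseudogenes, 2.55%, beside at most 1.17% in the other 13. The part of depth and of pseudogene counts in this value was not tested.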

How the results depend on the processing

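The number of genes called was 1100 with no replicate block (a fit that ignores the pairing of eyes), 1943 with DESeq2, 2594 with voom, 347 with no filter, 281 with the surface epithelium covariate and 97 (without mouse 7) to 1995 (without mouse 4) with 1 mouse left out, beside 559. Members called, beside 2, numbered 4 with DESeq2, 5 with voom, 1 each with upper-quartile scaling, with recomputed library sizes and without mice 3 and 4, 0 without a filter or with the covariate, and 0 to 5 with 1 mouse left out, where the 5 came without mouse 4. Ignoring the pairing called 2 members. The other pathway genes called numbered 4 without the block, 5 with DESeq2, 9 with voom, 6 without mice 3 and 4 and 0 (without mouse 7) to 15 (without mouse 4) with 1 mouse left out. The median of the members was -0.36 to -0.12 with 1 mouse left out, -0.25 with no block and 0.07 with the covariate. The split of calls was 479 higher and 80 lower in the reported fit, 1238 and 705 with DESeq2, 1586 and 1008 with voom, and 977 and 1018 without mouse 4.

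Over 9 named members and 17 alternatives, 120 of 153 values kept their direction and their side of the threshold, 19 lost the call (all Stat2 or Bst2), 3 gained one and 11 changed sign, none of them called. With the covariate, Irf1 changed to 0.061, Ddx58 to 0.071, H2-D1 to 0.25 and Cd74 to 0.0015. Ddx58 was 0.071 with no replicate block, and with 1 mouse left out it ranged from -0.21 to 0.077 and H2-D1 from -0.29 to 0.066. With 1 mouse left out Stat2 lay between -0.64 and -0.52, Bst2 between 0.86 and 1.14, B2m between 0.36 and 0.51, Nlrc5 between 0.93 and 1.67, Irf1 between -1.32 and -0.58, Ifitm3 between -0.38 and -0.05 and Cd74 between -0.64 and -0.16. The causes were not tested.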
